A study of Mus musculus with 8 samples.

Results

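The genes described here are 9 members of 3 connected families: the FET RNA-binding protein genes Ewsr1 and Taf15, the CREB factors Atf1, Creb1 and Crem, and the CREB coactivators Crtc1, Crtc2, Crtc3 and Crebbp. They were listed by name under a rule that used no measured value, though earlier results of these data were known. Each matched 1 identifier among the 49671 genes of the count table. The series holds 8 mouse tumors of 1 genotype, HprtCre; Ewsr1-loxP; Atf1-loxP, in which Cre comes from the widely expressed Hprt locus and recombines loxP sites in Ewsr1 and Atf1. All tumors were induced genetically, received no drug and were taken at morbidity from the primary tumor, and no sample is a control, so every comparison below is among tumors. The titles number the libraries 1, 2L, 2R, 3, 4a, 4b, 5 and 6, and no label says what a number or letter stands for or that samples came from separate animals, so p-values measure only the spread between these libraries.

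FET proteins bind RNA through their C-terminal part and carry a low-complexity N-terminal part that activates transcription when a chromosomal translocation joins it to a DNA-binding domain. CREB, ATF1 and CREM bind the cyclic AMP response element as dimers and are activated by phosphorylation, which recruits the acetyltransferase CBP, the product of Crebbp. CRTC proteins enter the nucleus when dephosphorylated and bind the same factors. In the EWSR1-ATF1 fusion of human clear cell sarcoma, the EWSR1 promoter drives a protein with the ATF1 DNA-binding domain, which no longer needs the usual phosphorylation. CREB1 and CREM are alternative partners of EWSR1 in related human tumors.

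The smallest library, 3, had 4817902 counts and the largest, 2L, had 19682149. Abundant noncoding and mitochondrial RNAs took 74.1% of the counts of library 3 and 3.76% to 38.6% of the others. Levels are given as CPM (counts relative to library size), with library sizes adjusted by TMM factors, which are estimated from the bulk of genes; against plain library totals this raised all values of library 3 by 1.36 on the log2 scale and moved the other libraries by between -0.39 and 0.29. Ratios between 2 genes within a library do not depend on this scaling. Markers of other cell types differed between tumors: summed skeletal muscle markers stood at 20178 CPM in 2L, 6553 CPM in 3 and at most 109 CPM elsewhere, and summed macrophage markers ran from 273 CPM in 3 to 3222 CPM in 6. In bulk tissue, fewer cells of a type and less RNA per cell cannot be told apart. The 7 melanocytic markers summed to 38.6 CPM in 2R, a median of 47.8 CPM and 205 CPM in 3, and 1 of them passed the filter on low counts. The place of library 3 as the highest rests on the TMM scaling. Of these markers Tyr, Tyrp1 and Mlana had no count in any library, a result that leaves room for 0.118 CPM in 2L and 1.60 CPM in 3, counting error only.

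All 9 genes passed the filter on low counts, with at least 39 counts in every library. Before any comparison, the promoter sequences of the members are described. The cyclic AMP response element, TGACGTCA, was searched in the RefSeq promoter windows of GRCm38.p6, which run from 250 bases before to 50 bases after a transcript start, together with its core pentamer TGACG, each on both strands. The full element contains the pentamer, so matches of the former are also matches of the latter. Windows were listed for 7 of the 9 genes, and Crem and Crtc2 had none. None of the 7 windows held the full element, which 1.79% of all 32851 windows held. The pentamer was in 2 of 7 windows, those of Ewsr1 and Atf1, against 20.8% of all windows. Below, 30 bases around each match are printed 5′ to 3′ on the strand of the gene with the match in capitals. Both are shown because no other of the 7 windows held a match. The Ewsr1 start region drives the fusion gene and Atf1 is its partner.
Ewsr1, chr11:5099213-5099242, minus strand: ttttagaccactCGTCAcgtccggctcttt
Atf1, chr15:100227757-100227786, plus strand: gtgaccacgcggTGACGcagcacgccggcg
The Ewsr1 match began 134 bases before the RefSeq start, lies on the opposite strand to the gene, and falls within an exon of another annotated Ewsr1 transcript. The Atf1 match began 90 bases before the start, lies on the strand of the gene and is in no annotated exon. A match is a stretch of letters and does not show binding.

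Ewsr1 (ENSMUSG00000009079, mm10 chromosome 11, 5069689 to 5099266, minus strand) varied 2.47-fold across the tumors on the TMM scale, and 4.19-fold by library totals. It stood at 109 CPM (tumor 1), 52.2 (2L), 89.8 (2R), 77.2 (3), 81.6 (4a), 107 (4b), 129 (5) and 65.4 (6). On the TMM scale tumors 2L and 6 were the lowest and tumor 5 the highest. By library totals library 3 was the lowest, at 30.1 CPM, followed by 2L at 67.6 CPM. Tumors 4b and 5 were then the highest, at 126 and 125 CPM. Tumor 2L, the lowest on the TMM scale, was also the library with the most skeletal muscle RNA, whose part in this was not tested. The gene shares 258 exon bases with Rhbdd3 on the opposite strand, and since strand handling is not stated, reads there cannot be assigned; Rhbdd3 had 20 to 146 counts per library against 145 to 1971 for Ewsr1.

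Taf15 (ENSMUSG00000020680, chromosome 11, 83473086 to 83506743, plus strand), which encodes another FET protein and is itself a fusion partner in human sarcoma, followed the order of Ewsr1 closely. It stood at 27.5 CPM (tumor 1), 10.2 (2L), 23.5 (2R), 20.8 (3), 16.5 (4a), 28.4 (4b), 35.0 (5) and 15.9 (6). On the TMM scale the lowest 2 tumors and the highest were the same as for Ewsr1. By library totals library 3 was the lowest for both genes, at 8.09 CPM for Taf15. Per kilobase of exon, the ratio of Taf15 to Ewsr1 lay between 0.394 in 2L and 0.550 in 5, a 1.40-fold range. Taf15 itself ranged 3.44-fold on the TMM scale and 4.21-fold by library totals. Ewsr1 was the higher of both in 8 of 8 libraries, with a mean log2 ratio of 0.99 ± 0.11 (SD over 6 title numbers; exact permutation p = 0.0312, adjusted p = 0.0417 over 36 pairs of genes, two-sided).

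Atf1 (ENSMUSG00000023027, chromosome 15, 100227819 to 100261244, plus strand), the gene that gives the fusion its DNA-binding domain, was among the steadiest members on the TMM scale. Its level was 21.7 CPM (tumor 1), 21.4 (2L), 24.8 (2R), 27.2 (3), 28.5 (4a), 34.0 (4b), 29.3 (5) and 29.1 (6), a 1.59-fold range, against 3.77-fold by library totals. On the TMM scale tumors 1 and 2L were the lowest and 4b the highest. Its processed pseudogene Atf1-ps had at most 2 counts in any library. A count per gene holds fusion and unrecombined transcripts alike.

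The 2 recombined genes did not keep a fixed ratio. Per kilobase of exon, Atf1 stood at 0.385 times the level of Ewsr1 in tumor 1, 0.439 in 5, 0.532 in 2R, 0.612 in 4b, 0.674 in 4a, 0.679 in 3, 0.790 in 2L and 0.860 in 6. The ratio thus ranged 2.23-fold, against 1.40-fold for Taf15 to Ewsr1. Ewsr1 was higher than Atf1 per length in 8 of 8 libraries (mean log2 ratio 0.77 ± 0.43, SD over 6 title numbers; exact permutation p = 0.0312, adjusted p = 0.0417). The size of the ratio depended on the length used: its median was 0.643 with the union of exons, which for Ewsr1 is 5907 bases, and 0.365 with the longest transcript, 2588 bases.

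**Figure D1:**
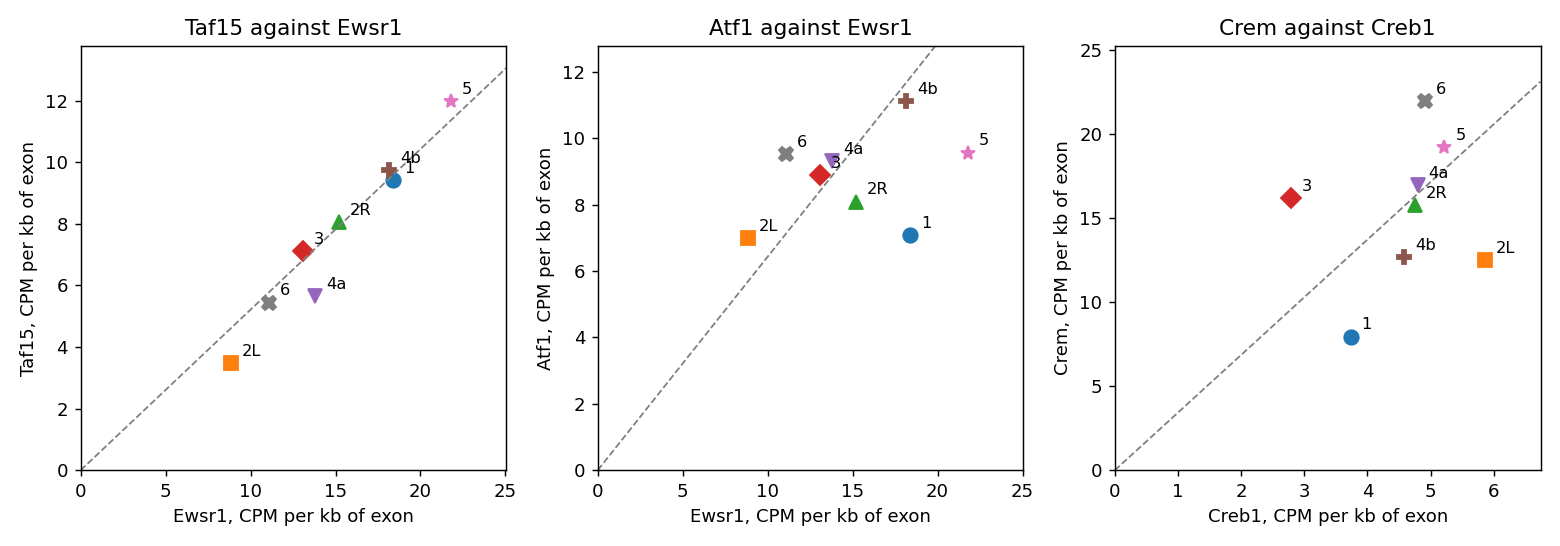
Length-scaled levels of 2 genes against each other, in CPM per kilobase of exon on both axes, 1 labelled point per tumor library; the dashed line marks the median ratio over the 8 libraries. Taf15 lies along the line with Ewsr1, with ratios of 0.394 to 0.550, whereas Atf1 to Ewsr1 runs from 0.385 to 0.860 and Crem to Creb1 from 2.13 to 5.80.

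Among the CREB factors, Crem was the most abundant per length in every tumor. Creb1 (ENSMUSG00000025958, chromosome 1, 64532645 to 64604548, plus strand), the founding member of the family, stood at 51.3 CPM (tumor 1), 80.5 (2L), 65.2 (2R), 38.4 (3), 65.9 (4a), 62.9 (4b), 71.7 (5) and 67.4 (6). Only library 3 and tumor 1 were below 60 CPM on this scale, and 2L was the highest. The value in library 3 rests on 72 counts, with a 95% exact Poisson interval of 30.01 to 48.3 CPM that covers counting error only. Without library 3 the range of Creb1 was 1.57-fold.

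Crem (ENSMUSG00000063889), which encodes activators and, from an internal promoter, the cyclic AMP-inducible repressor ICER, stood at 46.9 CPM (tumor 1), 73.6 (2L), 93.0 (2R), 95.3 (3), 99.96 (4a), 74.7 (4b), 113 (5) and 129 (6). On the TMM scale tumor 6 was the highest and tumor 1 the lowest, with 2.76-fold between them. By library totals library 3 was the lowest, at 37.2 CPM against 50.4 CPM in tumor 1, and the range was 4.42-fold. The annotation lists 39 transcripts of this gene, and gene counts do not tell the repressor from the activators. The noncoding gene Gm6225, on the opposite strand, overlaps 472 of its 5895 exon bases and had 11 to 69 counts per library.

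Crem exceeded Creb1 per kilobase in 8 of 8 libraries, by 2.13 times in 1 and 2L and by 5.80 times in 3, with a median of 3.43. It exceeded Atf1 in 8 of 8 libraries, by 1.123 times in 1 and 2.30 times in 6. Atf1 exceeded Creb1 in 8 of 8 libraries. All 3 differences had an exact permutation p of 0.0312 (adjusted p = 0.0417), and with the longest transcript as length Atf1 stood above Creb1 in 7 of 8. With the mean transcript length Atf1 and Creb1 had an adjusted exact permutation p of 0.0726. Of the 3 genes' summed level per length, Crem took 42.4% to 60.3%, Atf1 26.2% to 39.2% and Creb1 10.02% to 23.1%. Crem had the largest share in every library. The share of Creb1 was highest in 2L and lowest in 3, and without 3 its lowest was 13.5%.

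Which of the coactivators Crtc1, Crtc2 and Crtc3 was steadiest turned with the scaling: the ratio of highest to lowest library was 3.52, 4.29 and 1.76 on the TMM scale and 1.60, 2.13 and 5.11 by library totals. Crtc3 (ENSMUSG00000030527, chromosome 7, 80586627 to 80688877, minus strand) stood at 29.9 CPM (tumor 1), 29.7 (2L), 35.8 (2R), 21.3 (3), 27.5 (4a), 36.1 (4b), 24.3 (5) and 20.5 (6). On the TMM scale tumors 4b and 2R were the highest and tumors 6 and 3 the lowest.

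Crtc1 (ENSMUSG00000003575, chromosome 8, 70382355 to 70439579, minus strand), whose human counterpart is a fusion partner in salivary gland carcinoma, stood at 16.8 CPM (tumor 1), 11.3 (2L), 14.01 (2R), 30.4 (3), 8.61 (4a), 9.97 (4b), 13.3 (5) and 9.63 (6). Library 3 was the highest, with 57 counts and a 95% exact Poisson interval of 23.0 to 39.3 CPM. This rank rests on the scaling: by plain library totals, library 3 stood at 11.8 CPM and the others at 11.3 to 18.0.

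Crtc2 (ENSMUSG00000027936, chromosome 3, 90254163 to 90264125, plus strand), the family member best known for glucose production in the liver, stood at 14.2 CPM (tumor 1), 7.68 (2L), 16.04 (2R), 27.7 (3), 10.4 (4a), 14.9 (4b), 17.5 (5) and 6.46 (6). Library 3 was again the highest on this scale, with 52 counts, and tumors 6 and 2L the lowest. By plain library totals library 3 stood at 10.8 CPM, within the 8.20 to 17.5 of the others.

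Ratios within a library, which need no scaling, also set library 3 apart for these genes. Crtc1 per kilobase was 1.26 times Crtc3 in library 3 and 0.243 to 0.494 times in the other 7. Crtc2 was 3.13 times Crtc3 in library 3 and 0.623 to 1.73 times elsewhere. Against Creb1, Crtc1 stood at 0.973 in library 3 and at 0.161 to 0.402 elsewhere, and Crtc2 at 2.42 against 0.320 to 0.929. Crtc1 to Crtc2, by contrast, was 0.401 in library 3, within the 0.245 to 0.546 of the others. Library 3 has the fewest counts and the largest share of abundant noncoding and mitochondrial RNA, and some of its marker sums stood apart. On the TMM scale, fibroblast and matrix markers summed to 3388 CPM there against 12916 to 26772 CPM elsewhere. Proliferation markers summed to 682 CPM against 249 to 408 CPM, which rests on the scaling: TMM raised library 3 by 1.36 on the log2 scale. Endothelial markers, at 346 CPM, and T cell markers, at 17.6 CPM, lay within the range of the others on that scale. The part of any of these in the ratios was not tested. In the summed CRTC level per length, Crtc3 took 18.6% in library 3 and 31.2% to 51.0% elsewhere, and Crtc2 58.1% against 31.8% to 53.9%.

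**Figure D2:**
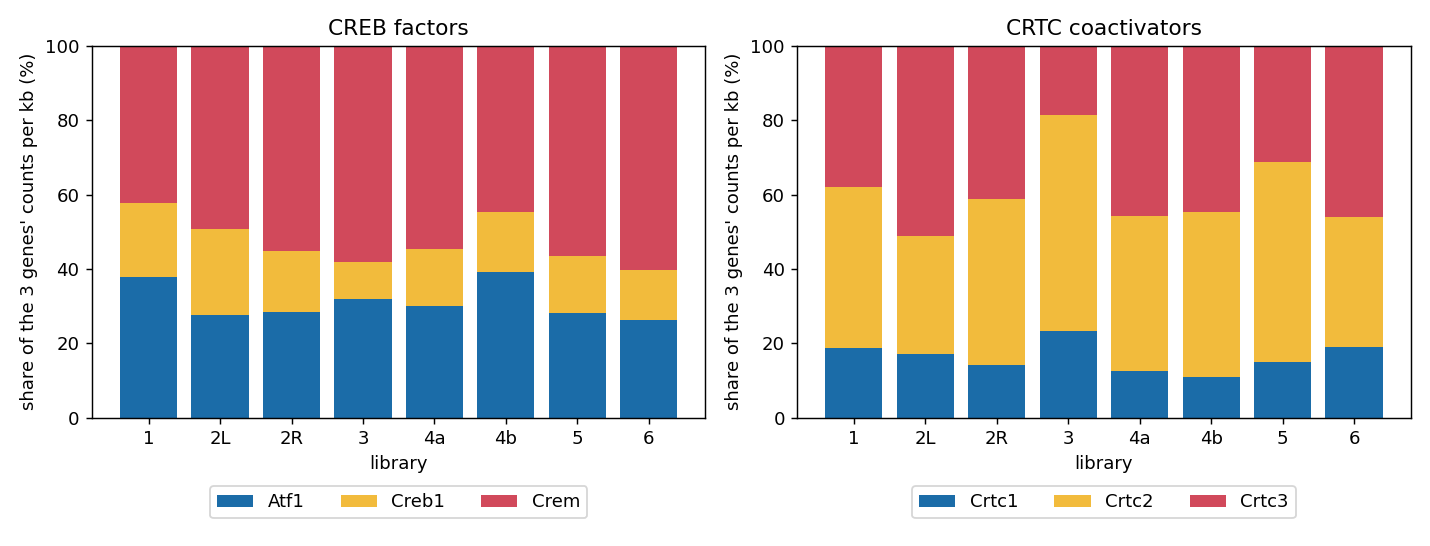
Share of each gene in the summed counts per kilobase of its family (percent, union of exons as length), 1 bar per tumor library, for Atf1, Creb1 and Crem at left and Crtc1, Crtc2 and Crtc3 at right. Crem takes 42.4% to 60.3% of its family in every tumor; in library 3 Crtc3 falls to 18.6%, against at least 31.2% in the other 7.

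Crebbp (ENSMUSG00000022521, chromosome 16, 4081328 to 4213997, minus strand), which encodes the acetyltransferase CBP, was the steadiest of the 9 genes on the TMM scale, but not by library totals. It stood at 172 CPM (tumor 1), 154 (2L), 153 (2R), 185 (3), 131 (4a), 151 (4b), 154 (5) and 131 (6), a 1.42-fold range and 1.32-fold without library 3. On that scale library 3 was the highest and tumors 4a and 6 the lowest. By library totals library 3 was instead the lowest, at 72.2 CPM against 125 to 199 CPM elsewhere, and the range was 2.76-fold. Its SD of log2 CPM, 0.17, was larger than that of only 2.23% of the 11505 genes kept, and the figure was 2.16% without library 3. With library totals in place of TMM factors it lay at the 16.7th percentile, above Crtc1 at the 0.678th and Crtc2 at the 8.22nd.

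**Figure D3:**
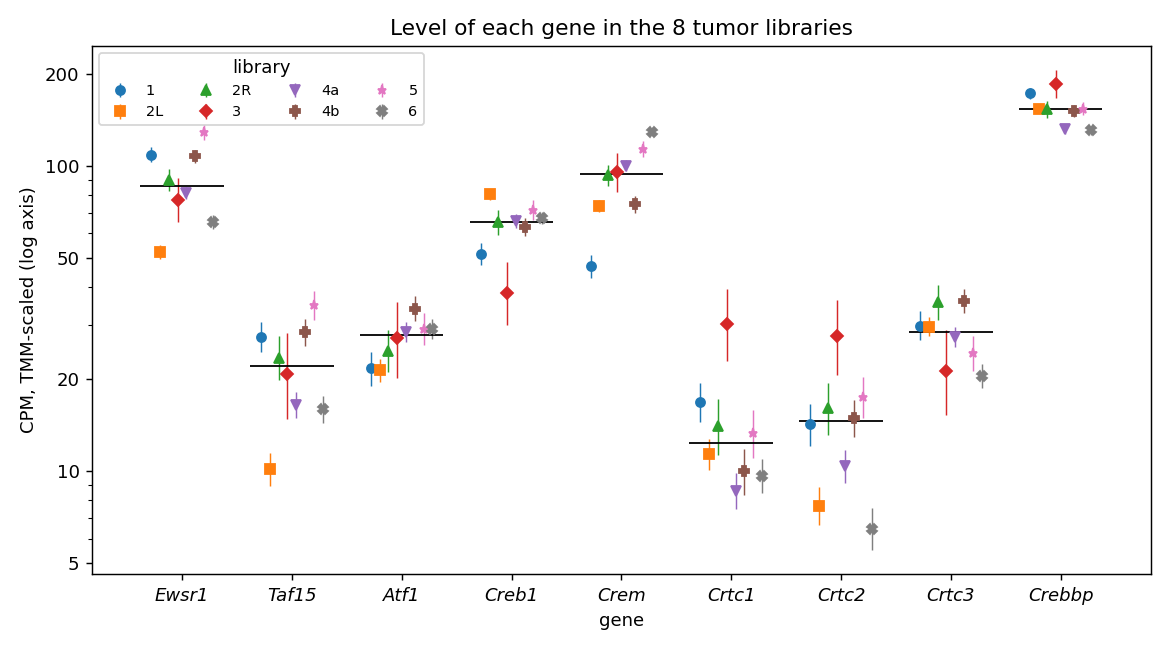
Level of each of the 9 genes in CPM (TMM-scaled, log axis), 1 symbol per tumor library with its 95% exact Poisson interval for counting error; the black line is the median of the 8 libraries. Crebbp spans only 131 to 185 CPM, Taf15 spans 10.2 to 35.0 CPM, and the red diamonds of library 3 stand above the other symbols for Crtc1 and Crtc2.

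The members as a set varied about as much as other genes or somewhat less. The median SD of log2 CPM was 0.42 for the 9 genes, between 0.17 for Crebbp and 0.67 for Crtc2, and 0.51 for all 11505 genes kept. The median percentile of the members was 37.0, with Atf1 at 7.35, Crtc3 at 18.3, Creb1 at 21.9, Crem at 41.5, Taf15 at 56.9, Crtc1 at 57.9 and Crtc2 at 67.5. These ranks moved with the scaling: with library totals, Crtc1 lay at the 0.678th percentile and Creb1 at the 61.6th. Without library 3, Crtc1 lay at the 37.0th percentile and Taf15 at the 72.8th.

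Ordered by median level per kilobase of exon, the genes ran from Crem at 15.97 CPM per kb through Ewsr1 at 14.5, Crebbp at 11.3, Atf1 at 9.09, Taf15 at 7.59, Creb1 at 4.77, Crtc2 at 3.55 and Crtc3 at 2.90 to Crtc1 at 1.10. Among all genes kept, Crem lay at the 84.7th percentile of level, Ewsr1 at the 82.6th and Crtc1 at the 7.05th. Of the 36 pairs of members, 27 differed in length-scaled level within libraries (exact permutation test over the 6 title numbers, smallest possible p 0.0312, adjusted p at most 0.0417 over the 36 pairs). Most neighbours in the order did not differ beyond their spread. Crem and Ewsr1 differed by a mean log2 ratio of 0.01 ± 0.73 (SD, 6 title numbers), and Crem was higher in 5 of 8 libraries. Ewsr1 and Crebbp, Atf1 and Taf15, Creb1 and Crtc2, Crtc2 and Crtc3, and Crtc3 and Crtc1 had adjusted p of 0.109, 0.307, 0.397, 0.45 and 0.075 by the same exact permutation test. Crebbp stood above Atf1 in 8 of 8 libraries (mean log2 ratio 0.39, adjusted exact permutation p = 0.0417), and Taf15 above Creb1 in 7 of 8 (0.78, adjusted exact permutation p = 0.0417). With the longest transcript as length neither was called: Crebbp was above Atf1 and Taf15 above Creb1 in 6 of 8 libraries each, both with an adjusted exact permutation p of 0.141. With the mean transcript length Creb1 ranked above Taf15. Ewsr1 with Crebbp and Crtc3 with Crtc1 were called with either of these lengths.

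**Figure D4:**
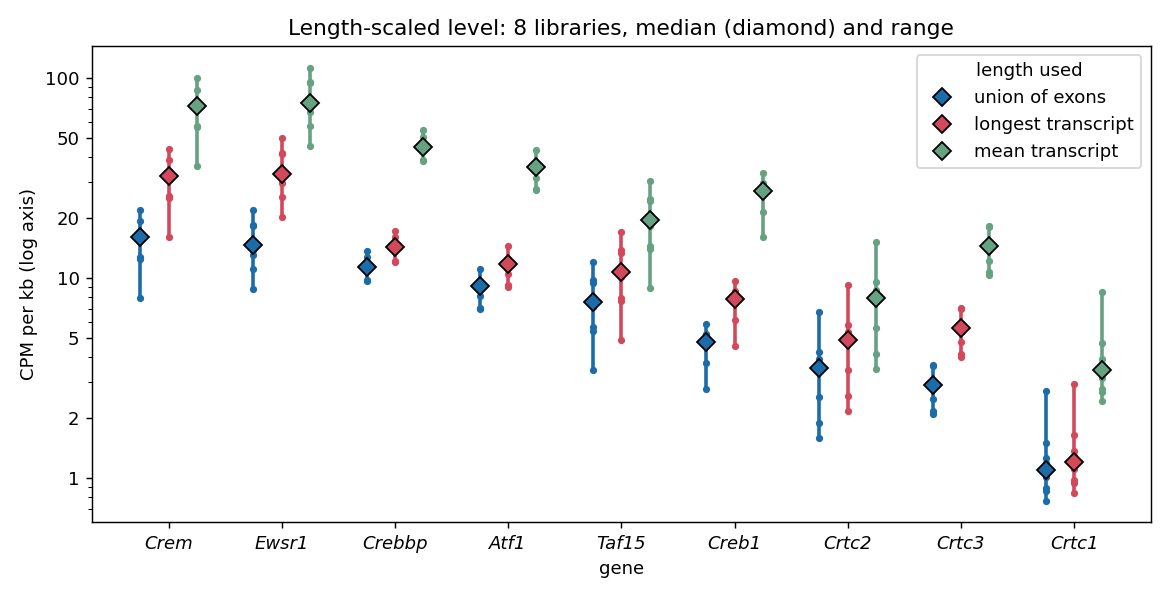
Length-scaled level of each gene in CPM per kilobase (log axis) under 3 definitions of gene length; small points are the 8 libraries, lines their range and diamonds their median. The 5 genes Crem, Ewsr1, Crebbp, Atf1 and Taf15 stand at medians of 7.59 to 15.97 with the union of exons, and Crtc1 is the lowest under every length shown.

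No member was called different among the 6 title numbers. The edgeR quasi-likelihood test, in which 2L with 2R and 4a with 4b give the spread within a number, called 0 of 9 members and 0 of 11505 genes (0%) at an adjusted p of 0.05. At an unadjusted threshold of 0.05 it marked 2813 genes, among them 1 member, Crtc1, whose edgeR adjusted p was 0.177. The other members had edgeR adjusted p of 0.301 for Crem, 0.351 for Crtc2, 0.4 for Creb1 and 0.52 to 0.804 for the rest. The DESeq2 likelihood ratio test also called 0 of 9 members, while it called 2383 of 11505 genes (20.7%). With no filter edgeR called 20.6% of 30321 genes and 0 of 9 members.

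Crtc1 and Crtc2 were called when 2L or 2R was left out, and the cause was not tested. Without 2L, edgeR called 38.7% of 11506 genes and 2 of 9 members, Crtc1 (adjusted p = 0.0277) and Crtc2 (adjusted p = 0.0407). Without 2R it called 39.3% of 11584 genes and the same 2 members (edgeR adjusted p = 0.0396 for Crtc1 and 0.0341 for Crtc2). The members' share, 2 of 9, was below that of all genes in both. Over all alternatives run, the adjusted p of Crtc1 ranged from 0.0277 to 0.609 and that of Crtc2 from 0.0341 to 0.682. Without library 3 neither was called.

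Libraries of the same title number were compared without a test, as 1 library against 1. Between 2L and 2R, 2 of 9 members differed at least 2-fold (22.2%), near the 17.8% of all genes kept. Taf15 in 2L was 0.432 times its level in 2R (95% exact counting interval 0.352 to 0.531) and Crtc2 0.479 times (0.375 to 0.614). Ewsr1 was also lower in 2L, at 0.581 times, whereas Crebbp was at 1.002 times (0.934 to 1.08) and Creb1 at 1.23 times. The size of these differences rests on the scaling: with library totals, Taf15, Crtc2 and Ewsr1 were still lower in 2L, by -0.55, -0.40 and -0.12 on the log2 scale, but none by 2-fold. Atf1 turned from -0.21 to 0.45, Crem from -0.34 to 0.33, Crtc1 from -0.31 to 0.36 and Crtc3 from -0.27 to 0.39, so that 3 of 9 members were lower in 2L in place of 7.

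Between 4a and 4b, 0 of 9 members differed at least 2-fold, against 4.70% of all genes kept. Taf15 was 0.580 times as high in 4a as in 4b (0.503 to 0.670), Crtc2 0.695 times (0.575 to 0.843) and Ewsr1 0.761 times (0.711 to 0.815). Crem was 1.34 times as high in 4a (1.24 to 1.44). In both same-number pairs Taf15 differed most among the 9 members on the TMM scale, and in both Taf15 to Ewsr1 was lower in the library with less of each, at 0.394 and 0.530 in 2L and 2R and at 0.409 and 0.536 in 4a and 4b.

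How closely 2 genes moved together was described by the SD, over the 8 libraries, of the log2 ratio between them. It is small for genes that rise and fall alike. The ratios used log2 CPM with a prior count of 2, so library scaling enters only through that added count. Ewsr1 and Taf15 were the closest members, with an SD of 0.19, and 0.19 without library 3. Among 11489 named genes compared with Taf15, Ewsr1 was the 4th closest. Among those compared with Ewsr1, Taf15 was the 30th. These ranks fell without library 3: Ewsr1 went from the 0.0261st to the 0.156th percentile for Taf15. Taf15 went from the 0.252nd to the 0.800th percentile for Ewsr1. The median SD of the log2 ratio over all genes was 0.78 for Taf15 and 0.67 for Ewsr1.

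The other members were less alike. Atf1 and Crebbp had an SD of 0.33, and Crem and Atf1 one of 0.38, with Atf1 the 152nd closest gene to Crem. That place, the 1.31st percentile, became the 6.15th without library 3. Crtc1 and Crtc2 had an SD of 0.43 between them and of 0.73 and 0.72 to Crtc3. Without library 3 these SDs were 0.46, 0.38 and 0.46, so that Crtc1 was then nearer to Crtc3 than to Crtc2. The widest ratios were those of Crtc2 and Crtc1 to Creb1, at 0.93 and 0.87, and both narrowed without library 3, to 0.66 and 0.46. Ewsr1 and Atf1, the recombined genes, had an SD of 0.40.

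**Figure D5:**
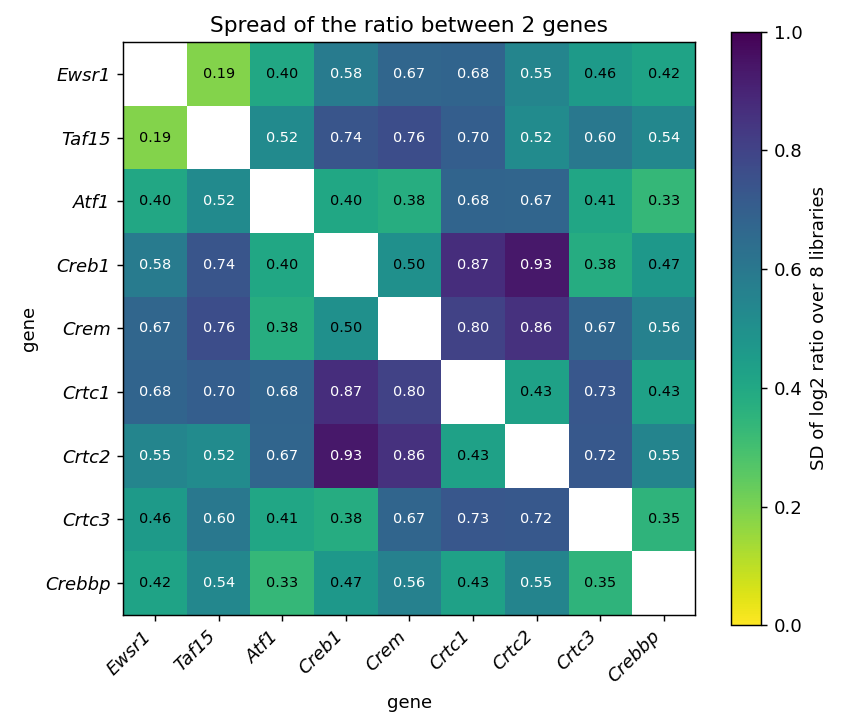
SD over the 8 libraries of the log2 ratio between each 2 of the 9 genes; yellow cells mark genes whose ratio is steady. Ewsr1 with Taf15 is the smallest at 0.19, and Crtc2 with Creb1 the largest at 0.93.

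Genes outside the list came closer still. Nearest to Taf15 were Luc7l2, which encodes a U1 snRNP-associated factor, at an SD of 0.10, Rsrp1 at 0.17 and the cyclin gene Ccnl1 at 0.17. Nearest to Ewsr1 were Arid4a at 0.12, Rsrc2 at 0.13 and Khdc4 at 0.13. Rsrc2 and Rsrp1 encode arginine- and serine-rich proteins. Nearest to Atf1 were R3hcc1l, the demethylase gene Kdm3b and Wdfy3, at 0.12 each. Nearest to Creb1 were Ndel1, Zc2hc1a and Vezf1, at 0.08, 0.09 and 0.11. For Crem the closest, Tma7, Smim11 and Med21, stood at 0.22, 0.25 and 0.26. For Crtc1 they were Cep97, Trmt1 and Dvl2 (0.14, 0.14 and 0.15), for Crtc2 Rai1, Setd1a and Rpl13 (0.17 each), for Crtc3 Spin1, Uckl1 and Furin (0.09, 0.14 and 0.14), and for Crebbp Fastkd1, Ttc19 and Utp14a (0.06, 0.06 and 0.09). These rest on 8 libraries, are the smallest of 11489 values, and carry no test. When library 3 was left out, Luc7l2 remained the closest to Taf15 and Cep97 to Crtc1, and the closest gene of each of the other 7 members lost that place. Arid4a moved to rank 6 for Ewsr1, R3hcc1l to 21 for Atf1, Tma7 to 20 for Crem and Rai1 to 9 for Crtc2.

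Around the members, 8 lists of 92 genes covered cyclic AMP production, protein kinase A, enzymes and adaptors that act on CRTC proteins, CREB kinases, other CREB and ATF factors, partners of CBP and RNA-binding proteins. Of these, 83 passed the filter. The edgeR test of any difference among the title numbers called 0 of 83, and 20 had an unadjusted p below 0.05 (24.1%, against 24.5% of all genes kept). The DESeq2 test called 12 of 83 (14.5%), below the 20.7% of all genes.

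Cyclic AMP is made by adenylyl cyclases, of which 7 of 10 were kept. Adcy2 was the most abundant per length, at 21.8, 41.5 and 45.8 CPM per kb as lowest, median and highest of the 8 libraries. Adcy7 varied most, from 18.1 CPM in 3 through a median of 70.1 to 180 CPM in 4b. Both 4a and 4b were above 150 CPM of Adcy7 and no other library exceeded 97.3. Of the protein kinase A subunits and inhibitors 8 of 9 were kept. The regulatory subunit gene Prkar1a was steady, at 191, 251 and 283 CPM as lowest, median and highest, and the catalytic subunit gene Prkaca stood at 30.1, 49.7 and 71.7 CPM. Pkia, an inhibitor gene, ranged from 1.34 CPM in 6 to 47.7 CPM in 2L.

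All 11 genes for enzymes that act on CRTC proteins were kept. The calcineurin subunit genes, whose product dephosphorylates CRTC proteins, were the most abundant per length, with Ppp3r1 at 60.2, 105 and 192 CPM and Ppp3ca at 62.9, 151 and 205 CPM as lowest, median and highest. Library 3 was the lowest for each. Prkaa2, a subunit gene of the AMP-activated kinase, ranged from 1.89 CPM in 4b to 31.4 CPM in 2L. The Ywha adaptor genes, whose products hold phosphorylated CRTC proteins in the cytoplasm, had a median SD of log2 CPM at the 25.1st percentile. The highest per length were Ywhab, at 116, 168 and 196 CPM as lowest, median and highest, and Ywhae, at 107, 126 and 174 CPM. In that list 6 of 7 genes were kept, and Ywhah varied most, from 49.0 CPM in 3 to 122 CPM in 4b.

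Among 11 other kinases that phosphorylate CREB, Camk4, the calcium- and calmodulin-dependent kinase IV gene, set the 4a and 4b tumors apart. It stood at 384 CPM in 4a and 361 CPM in 4b, at 84.1 in 5, and between 11.2 and 53.5 CPM in the other 5. The edgeR test did not call it (adjusted p = 0.0974), and the DESeq2 test did (adjusted p = 1.8e-25). Its SD of log2 CPM, 2.02, lay at the 99.2nd percentile. Akt1 and Camk2g were the most abundant per length, at 115, 156 and 306 CPM and at 76.9, 88.1 and 126 CPM as lowest, median and highest. Creb1 and Crem in 4a and 4b lay within the range of the other libraries.

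Other CREB and ATF factor genes were kept in 16 of 19 cases. The stress response factor gene Atf4 stood at 133, 149 and 212 CPM and Nfil3 at 55.2, 85.2 and 134 CPM as lowest, median and highest. Crebzf varied most, at 236 CPM in library 3 and 28.3 to 69.0 CPM in the others. Its adjusted p was 0.123 by edgeR and 1.4e-05 by DESeq2. Of the genes for acetyltransferases and partners of CBP 10 of 11 were kept. Kat2b and Ncoa3 were the most abundant per length, at 35.2, 64.9 and 86.2 CPM and at 61.7, 90.5 and 117 CPM. Cited2 varied most, from 4.46 CPM in 4b to 23.1 CPM in 1. The median SD of log2 CPM of this list ranked at the 17.4th percentile among genes kept, and Crebbp itself at the 2.23rd.

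Of the RNA-binding protein genes, all 14 were kept. Sfpq stood at 88.7 CPM in 2L, a median of 197 and 370 CPM in 3. Hnrnpu stood at 340 CPM in 2L, a median of 454 and 765 CPM in 3. For both genes the place of library 3 as the highest rests on the TMM scaling. Against library totals, that scaling raised library 3 by 1.36 on the log2 scale. Hnrnpa1 ranged from 4.08 CPM in 2L to 17.1 CPM in 5.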

How the data were processed

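Total RNA was depleted of ribosomal RNA and sequenced, per the labels. The authors deposited 1 table of raw counts per Ensembl gene; the build mm10 and the tools STAR 2.7.5a, featureCounts, RSEM and cutadapt are named, per the submitters' processing notes. Which tool made the counts, the annotation and the strand handling are not given in the sources used here. Genes were named from GENCODE M21 (49326 of 49671), which also gave lengths and 1-based coordinates of the same build.

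In R 4.3.3, edgeR 4.0.16 kept 11505 genes (filterByExpr for 1 group: 0.92 CPM, or 10 counts at the median library size), scaled them by TMM and tested differences among the 6 title numbers (quasi-likelihood, robust prior, Benjamini-Hochberg at 0.05). DESeq2 1.42.0 gave the alternative. SDs used log2 CPM with a prior count of 2. Length-scaled pairs were tested with two-sided exact sign-flip permutation over title numbers, with every sign pattern enumerated (numpy 2.4.6). Simulated counts with known changes were used to test the edgeR step. They drew every library from the same dispersion trend, so the larger spread between 2L and 2R than between 4a and 4b was not simulated. Alternatives covered the test, filter, scaling, gene length and leaving out each library. The members, gene lists and tests were chosen with earlier results of these data known. All 9 members are named, with, per list, the 2 genes highest per length and the 1 of largest SD, and, per member, the 3 genes of steadiest ratio. Counting intervals (scipy 1.17.1) cover counting error only. Precision follows depth, and library 3 had 983 counts over the 9 genes against 3310 to 11668 elsewhere.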

Additional observations from a re-analysis of the deposited data

Results flagged for a closer look

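In 6 of 21 sets of 8 library values checked, library 3 lay further from the nearest other library than the usual limit for 8 values. The check used unlogged CPM and ratios, among which high values spread more widely than low ones. Chance marks about 1 set in 20 only where values are normally distributed, and these 6 share genes. They were Crtc1 at 30.4 CPM (next 16.8), the ratio per kilobase of Crtc1 to Crtc3 at 1.26 (next 0.494), of Crtc2 to Crtc3 at 3.13 (next 1.73), of Crtc1 to Creb1 at 0.973 (next 0.402), of Crtc2 to Creb1 at 2.42 (next 0.929) and of Crtc1 to Crebbp at 0.198 (next 0.118). The CPM value depends on the TMM scaling and the ratios do not. In library 3 these values rest on 57 counts of Crtc1, 52 of Crtc2, 40 of Crtc3, 72 of Creb1 and 348 of Crebbp. The part of depth or RNA composition was not tested.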

How the results depend on the processing

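Among the title numbers, edgeR called 0 genes, DESeq2 2383 and edgeR with no filter 6260; leaving out 1 library gave 0 to 4548 genes and 0 to 2 of the 9 members, the calls arising without 2L or without 2R only. The cause was not tested. DESeq2 size factors, the filter on 10 counts in 2 libraries and the plain prior gave 0 of each. The 27 of 36 member pairs became 29 with the longest transcript and 30 with the mean transcript (25 and 24 of them among the 27), and became 23 with no length and 30 with 8 libraries as units; without 1, 3, 5 or 6 the smallest exact permutation p is 0.0625, so no pair could be called, and all 27 kept their direction in each. Without length scaling 4 of the 27 changed sign. With library totals 0 members were 2-fold apart between 2L and 2R, and at 1.5-fold 1 was between 4a and 4b. The median ratio of Atf1 to Ewsr1 was 0.365 with the longest transcript. The median percentile of the members' SD stayed between 20.6 and 41.5 in the alternatives run. No paired analysis was possible because there is 1 group.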

Other observations

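Some genes of the lists that did not pass the filter, or that DESeq2 alone called among the title numbers, are given here. Those called by DESeq2 differ between tumors by the way they were chosen. Cited1, which encodes a CBP-binding protein, stood at 34.2 CPM in tumor 1, 24.2 in 6 and 10.4 in 2R, and at no more than 2.48 CPM in the other 5. Adcy1 and Adcy8, cyclase genes known from neurons, were highest in tumor 1, at 15.4 and 9.68 CPM, and lowest in 6, at 0.325 and 0.0407 CPM. Prkar2b, a protein kinase A regulatory subunit gene, stood at 109 CPM in 6 and 20.1 to 51.9 CPM elsewhere. In library 3, Ncoa2 stood at 250 CPM, Stk11 at 142 CPM and Kat2a at 69.2 CPM, against at most 165, 63.4 and 29.5 CPM in the others on the TMM scale. These genes were picked after their values were seen.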
